A study of Mus musculus with 3 samples.

Results

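Cluster 6 of the Ob library is a group of nuclei from the epididymal fat of obese mice that had no cell type name, and its genes were read here to ask which cell kind or mixture it holds. It was taken as the column of its mean counts in the table of that library, 1 of 21 clusters, and it held 3293039 UMIs (single transcript molecules), 2.95% of those of the library. Of 26350 genes listed, 18681 had a count in it. It was set against the other 20 clusters of Ob, which held 108302479 UMIs.

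The study prepared 1 library of nuclei for each of 3 stages, from male C57BL/6J mice bought at 5 weeks of age. The animals of Ctrl were kept on an ordinary diet, while those of Mid_Ob and of Ob were given food with 60% fat. The fat of 8 mice was pooled into each library, so no value has a replicate and no test is given. The nuclei were grouped by these same counts, so the genes that set cluster 6 apart describe it and are no independent evidence.

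Dendritic cells take up antigen, load it on MHC class II molecules and show it to T cells, and they depend on the growth factor receptor Flt3. The conventional kind comes in a type 1, which takes up dead cells through Clec9a and carries Xcr1, and a type 2, marked in mice by Cd209a and Irf4. Monocytes enter fat from the blood by way of the chemokine receptor Ccr2 and can become macrophages or dendritic-like cells there. In obese fat, lipid-associated macrophages that carry Trem2 and Gpnmb gather around dying adipocytes, while resident macrophages marked by F13a1, Lyve1 and Cd163 lie along vessels.

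Levels below are CPM (counts scaled to 1 common total per cluster), and each ratio is the CPM of cluster 6 over that of the group named, with the 95% interval of counting error in parentheses. Genes past 2-fold with at least 50 counts in the pair are called higher or lower here, and the intervals cover counting error only. Against the other clusters summed, 1608 of 18009 genes (8.93%) were higher in cluster 6 and 4157 (23.1%) were lower, around a median log2 ratio of -0.07. Against the median of the other 20 clusters, each with equal weight, the split was 1830 higher and 1938 lower.

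The genes that stood highest in cluster 6 were led by dendritic cell genes. Clec9a, the receptor for dead cells, had 107 CPM in cluster 6, against 4.02 in the other clusters (ratio 26.5, 23.0 to 30.6). Flt3 had 106 CPM, against 4.57 (ratio 23.1, 20.1 to 26.6). Cluster 6 carried 44.7% of all Clec9a counts of the library (41.1 to 48.2) and 41.3% of the Flt3 counts (37.9 to 44.7), beside its 2.95% of the UMIs. The next highest cluster had 16.1 CPM of Clec9a (cluster 15) and 32.9 CPM of Flt3 (cluster 14).

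The ratios of the other 10 of the 12 leading genes went up to 22.5 (Htr7), and 10 of the 12 were highest in cluster 6 among the 21 clusters. Htr7, a serotonin receptor, had 110 CPM in cluster 6, against 4.90 in the other clusters. Bcl11a, a zinc finger factor needed for B cells and plasmacytoid dendritic cells, had 158 CPM, against 10.5. Bcl11a was nearly as high in cluster 15 (143 CPM), which also held the lymphocyte markers. The 2 genes exceeded elsewhere were Kynu, an enzyme of tryptophan breakdown, with 77.1 CPM in cluster 6 against 109 in cluster 15, and the lectin receptor Clec1a, with 71.7 against 90.1 in cluster 21. Klri1, Klra2, Skint3, Hepacam2, Gpr141 and Sept3 completed the set. Klri1, Klra2 and Skint3 belong to families of closely similar genes, so reads may be shared among their copies and their values are uncertain.

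**Figure D1:**
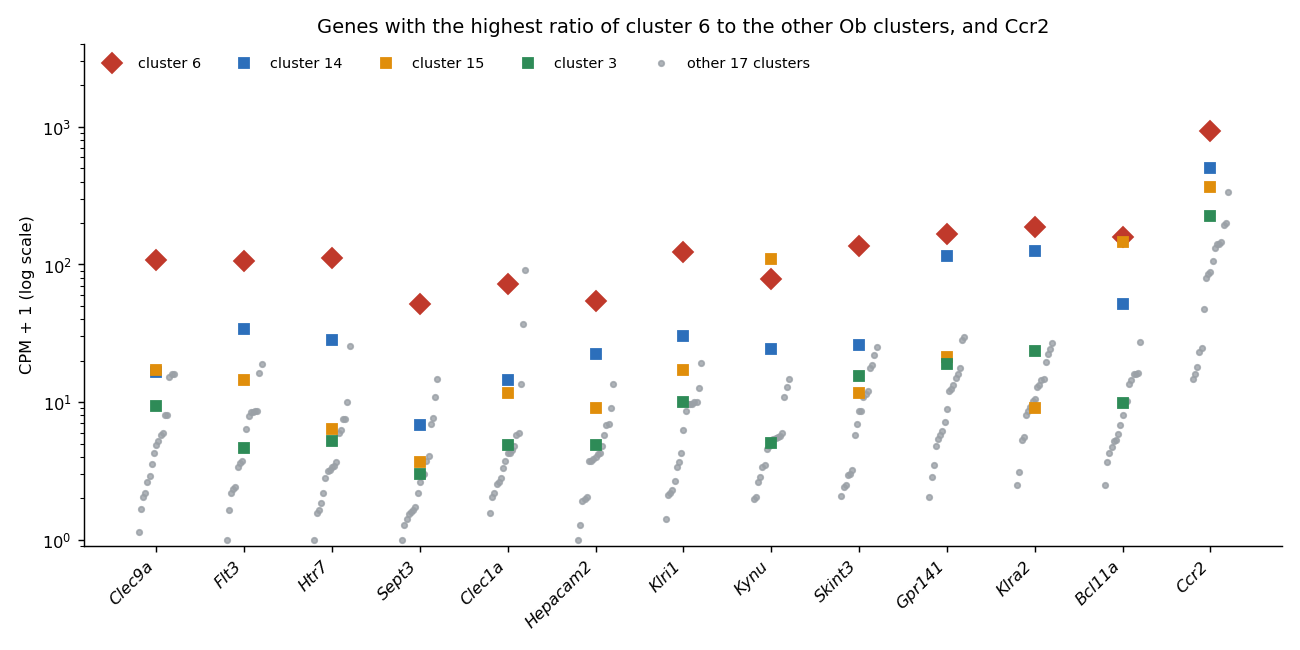
CPM plus 1 (log scale) of the 12 genes with the highest ratio of cluster 6 to the other Ob clusters, and of Ccr2, with 1 point per cluster. Red diamonds are cluster 6, squares are clusters 14, 15 and 3, and grey points the other 17; the red diamond is the top point for every gene but Clec1a and Kynu.

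The bases just before the start of Clec9a and Flt3, the 2 leading genes of the cluster, are shown for reference as RefSeq gives them on GRCm38.p6. They lie at chr6:129408802-129408861 on the plus strand and chr5:147400490-147400549 on the minus strand, written 5′ to 3′.
Clec9a: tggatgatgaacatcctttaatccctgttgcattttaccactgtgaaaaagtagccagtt
Flt3: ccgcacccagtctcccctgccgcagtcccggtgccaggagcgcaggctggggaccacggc
The letters GAGGAAG, the core bound by the myeloid factor PU.1, were searched on both strands of the 250 bases before the start. They occurred in 0 of the 9 leading genes with a RefSeq promoter and in 10.6% of 32851 promoters, which says only that these letters are not in this window.

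Of the 12 dendritic cell markers, 10 were higher in cluster 6 than in the other clusters summed and 0 lower, with a median log2 ratio of 2.98. Their summed level was 1460 CPM in cluster 6, the highest of the 21 clusters, against a median of 508 in the others and 1326 in cluster 2, the next. That sum leans on Cadm1, an adhesion molecule with 454 CPM in cluster 6 and 1192 CPM in cluster 2, and on Dpp4, a surface peptidase of fibroblast progenitors too, with 231 CPM in cluster 6 and 965 CPM in cluster 12. The more restricted markers gave a clearer order. Xcr1, the chemokine receptor of type 1 cells, had 35 counts in cluster 6, at 10.6 CPM, against 0.794 in the other clusters and at most 3.34 in any. Cd209a had 31.3 CPM in cluster 6, against 3.14 in the other clusters (ratio 9.96, 7.91 to 12.5). The gap to cluster 14, where it had 21.3 CPM, was within counting error (ratio 1.47, 0.789 to 3.04).

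The transcription factors of dendritic cells were high as well. Batf3, needed for type 1 cells, had 166 CPM in cluster 6, against 21.6 in the other clusters, and Irf8, its partner, had 185 against 58.9. Both were highest of the 21 clusters. Zbtb46, a factor of conventional dendritic cells also made by endothelium, had 142 CPM in cluster 6, against 37.0 in the other clusters. It was higher in endothelial-rich cluster 21, at 223 CPM. Itgae and Cadm1, at ratios of 1.27 and 1.26, were the 2 markers not past 2-fold, and Cadm1 turned lower without adipocyte-like clusters 4, 5 and 7 (log2 ratio -0.35).

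Subtype lists, picked after the values had been seen, covered type 1 and type 2 markers together. Of 12 type 1 genes, 9 were higher and 0 lower than in the other clusters, and Wdfy4, needed to present antigen from dead cells, had 798 CPM in cluster 6 against 117 in the others. Of 11 type 2 genes with enough counts, 8 were higher and 0 lower. The summed level of the type 2 list, 909 CPM, lay below those of clusters 20 (1028 CPM) and 11 (989 CPM). Against cluster 11 alone 3 of 9 type 2 genes were higher and 2 lower, and against cluster 14 alone 3 of 9 higher and 0 lower. Type 1 genes were higher for 6 of 7 against cluster 11 and 4 of 7 against cluster 14, and their sum was highest in cluster 6. Irf4, the factor of type 2 cells, had 41.0 CPM against 8.71, and Kmo, an enzyme of tryptophan breakdown, had 91.4 against 15.1. Wdfy4, Irf4 and Kmo were each highest in cluster 6. Of 8 migratory dendritic cell genes 5 were higher, and of 7 plasmacytoid genes 3, with 0 lower in either list. Ccr7, the receptor that brings migrating dendritic cells to lymph nodes, had 19 counts, at 5.77 CPM, against 10.7 CPM in cluster 15. Of the plasmacytoid markers, Siglech had 38 counts, at 11.5 CPM, lower only than in cluster 20, and Spib had 0 counts, which allows up to 0.911 CPM.

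All 7 MHC class II genes were measured, and 6 of them were higher in cluster 6 and 0 lower, with a median log2 ratio of 2.05. Ciita, the master activator of the class, had 449 CPM in cluster 6, against 66.5 in the other clusters and 296 in cluster 11, the next. H2-Eb1, a chain of the molecule itself, had 514 CPM in cluster 6, against 117 in the other clusters, and was within counting error of cluster 11 (ratio 1.05, 0.967 to 1.15). The summed level was 2783 CPM in cluster 6, nearly that of cluster 18, at 2787 CPM. The H2 genes are similar to each other, and reads shared among them would make single values uncertain.

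Monocyte genes were high too, but Ly6c2 and Chil3 had few counts. Of the 9 monocyte markers with enough counts, 8 were higher in cluster 6 and 0 lower, with a median log2 ratio of 1.97. Ccr2 had 924 CPM in cluster 6, against 89.4 in the other clusters (ratio 10.3, 9.92 to 10.8), and 499 CPM in cluster 14, the next. Cluster 6 held 23.9% of the Ccr2 counts of the library (23.2 to 24.7). Ly6c2, the marker of classical monocytes, had 17 counts, at 5.16 CPM, and Chil3, another, had 3 counts. Ly6c2 was higher in cluster 15, at 57.7 CPM. In lists also picked after the values had been seen, 7 of 9 classical and 8 of 9 non-classical monocyte genes were higher and 0 lower. The classical sum, 3298 CPM, lay below those of clusters 20 (7975 CPM) and 11 (4016 CPM), and the non-classical sum, 440 CPM, below cluster 15 (508 CPM). Treml4, a marker of the non-classical kind, had 23 counts, at 6.98 CPM, against 0.379 CPM in the other clusters, though its ratio to cluster 14 was 1.81 with an interval of 0.446 to 15.8, and Plac8 had 38.9 CPM, below the 75.1 of cluster 15. Fn1, fibronectin, had 989 CPM in cluster 6, against 252, and 1156 CPM in the fibroblast-rich cluster 8. The summed level of the main monocyte markers, 2097 CPM in cluster 6 against 1954 in cluster 8, rests on Ccr2 and Fn1.

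**Figure D2:**
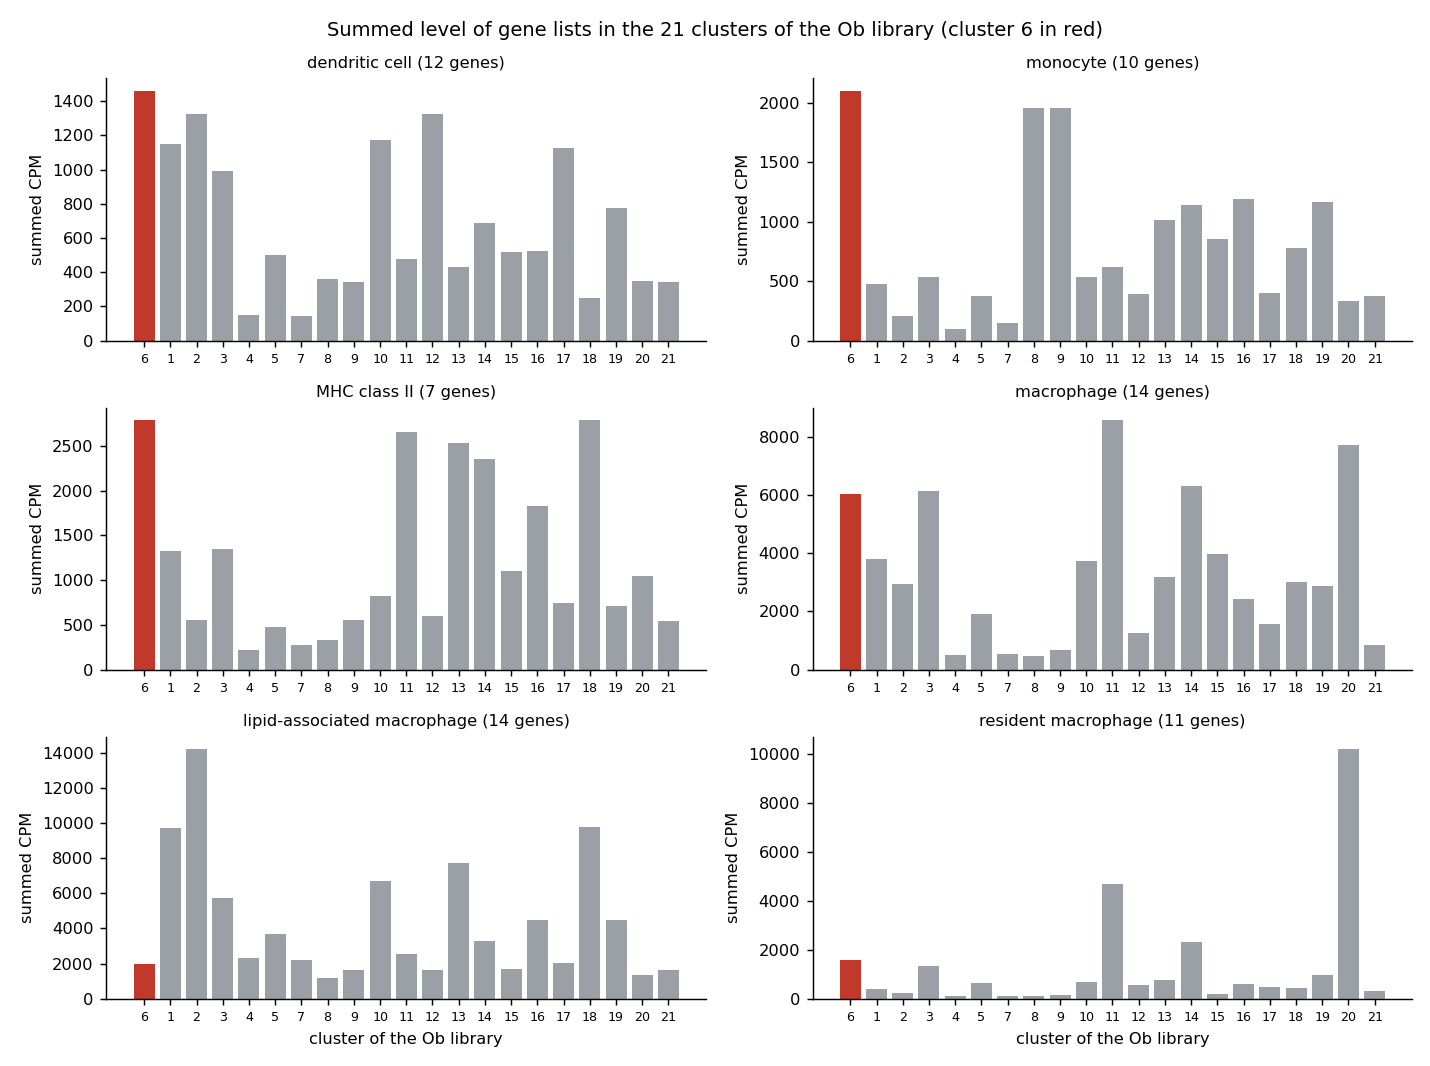
Summed CPM of 6 marker lists in each of the 21 Ob clusters, with cluster 6 as the red bar at the left of each panel and the other 20 as grey bars in number order. Cluster 6 was highest for dendritic cell genes (1460 CPM) and monocyte genes (2097 CPM), and had 1995 CPM of lipid-associated macrophage genes against 14205 CPM in cluster 2.

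General macrophage genes were present without leading. Of 14 macrophage markers, 7 were higher in cluster 6 than in the other clusters summed and 0 lower, and the summed level of 6031 CPM lay below those of clusters 11, 20, 14 and 3 only. Itgam, the integrin CD11b of many but not all myeloid cells, was highest in cluster 6, at 364 CPM against 323 in cluster 14. That gap was within counting error (ratio 1.13, 0.958 to 1.33). Adgre1 (F4/80) had 500 CPM in cluster 6, against 1055 in cluster 11, and Mertk, the receptor by which macrophages engulf dead cells, had 277 against 1166.

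The lipid-associated macrophage program was low in cluster 6. The summed level of the resident program was above the other clusters summed but far below the cluster that led it. Of 14 lipid-associated macrophage markers, 6 were lower in cluster 6 and 0 higher, with a median log2 ratio of -0.86. Gpnmb, a glycoprotein of lipid-laden macrophages, had 96.9 CPM in cluster 6, against 558 in the other clusters and 3190 in cluster 2, and Atp6v0d2, a proton pump subunit, had 79.0 against 425 and 1774. Itgax, the integrin CD11c that dendritic cells share with these macrophages, had 52.2 CPM in cluster 6, against 43.1 in the other clusters. Of 11 resident macrophage markers, 3 were higher and 0 lower, and the sum was 1598 CPM in cluster 6, against 10195 in cluster 20. That sum ranked 4 of 21 and was 2.24 times that of the other clusters, while the lipid-associated sum ranked 15 and was 0.451 times that of the others. F13a1, a clotting factor subunit, had 1074 CPM in cluster 6, against 7584 in cluster 20. Mgl2, a lectin of macrophages and type 2 dendritic cells, had 169 CPM in cluster 6, against 170 in cluster 11 and 167 in cluster 20. The lectin gene Cd209f had 6.07 CPM in cluster 6, against 137 in cluster 20.

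Adipocyte-like clusters 4, 5 and 7 hold much of the comparison sum, so the ratios were also taken without them. Against the other 17 clusters, 857 of 16252 genes (5.27%) were higher and 3352 (20.6%) lower in cluster 6. Dendritic cell markers were then higher for 10 of 12, with a median log2 ratio of 2.32, and MHC class II genes for 6 of 7. The dendritic cell members changed, as Dpp4 was no longer past 2-fold (log2 ratio 0.81) and Itgae was. Of 8 monocyte markers 4 were higher and 1 lower, and of 14 macrophage markers 4 were higher. Lipid-associated macrophage markers were lower for 10 of 14.

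Over its whole transcriptome, cluster 6 was most like the macrophage-rich clusters. The likeness is the correlation of log2(CPM + 10) across 8581 genes with at least 50 CPM in any cluster. Genes are not independent, and clusters of 1 library share its free RNA. Pearson r was 0.957 with cluster 14, 0.946 with cluster 3 and 0.938 with cluster 11, and 0.551 to 0.919 with the other 17. Spearman rho gave 0.951, 0.943 and 0.933 for the same 3. Lymphocyte-rich cluster 15 came ninth, at a Pearson r of 0.831. In the other libraries the most alike clusters were cluster 4 of Mid_Ob (Pearson r 0.945) and cluster 11 of Ctrl (Pearson r 0.905).

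**Figure D3:**
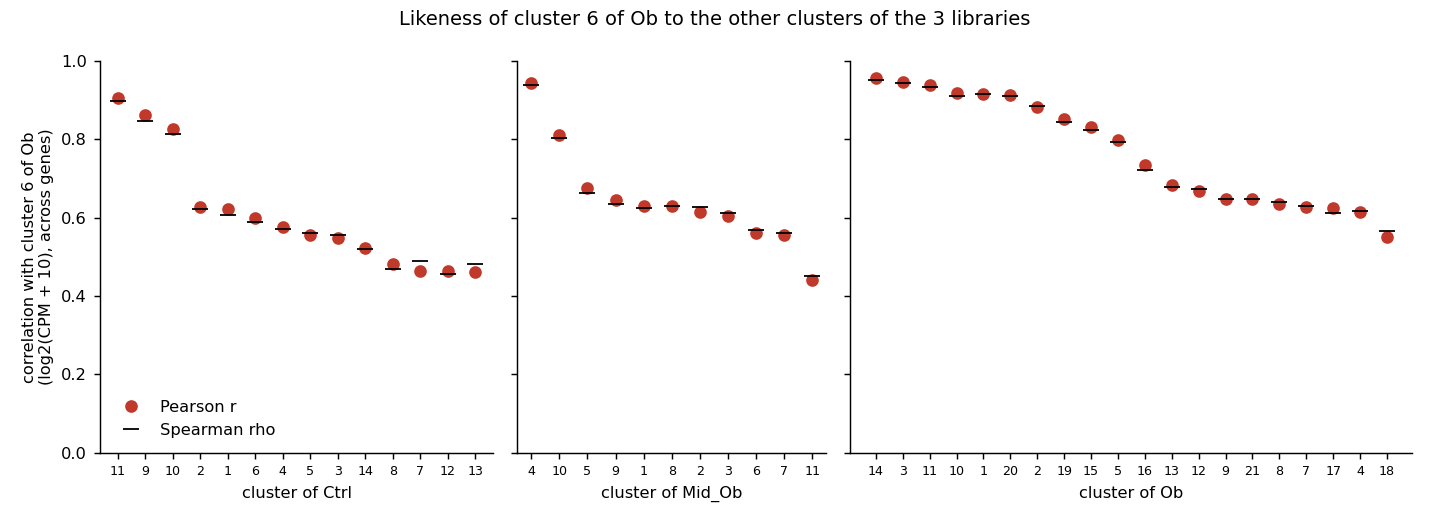
Correlation of cluster 6 of Ob with each cluster of Ctrl (14) and Mid_Ob (11) and each other cluster of Ob (20), across 8581 genes on the log2(CPM + 10) scale, with red points for Pearson r and black dashes for Spearman rho, each library sorted by r. Clusters 14, 3 and 11 of Ob and cluster 4 of Mid_Ob lie between 0.938 and 0.957.

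Set against cluster 14 alone, which held 517257 UMIs, 475 of 8779 genes (5.41%) were higher in cluster 6 and 304 (3.46%) lower. Of 8 dendritic cell markers with enough counts 4 were higher and 0 lower, with a median log2 ratio of 1.13 beside 0.01 over all genes. Clec9a had 107 CPM in cluster 6, against 15.5 in cluster 14 (ratio 6.89, 3.46 to 16.1), and Flt3 had 106 against 32.9 (ratio 3.22, 1.98 to 5.58). Ccr2 was closer, with 924 against 499 CPM (ratio 1.85, 1.63 to 2.11). Monocyte markers were higher for 1 of 5, classical monocyte genes for 1 of 7 and non-classical monocyte genes for 1 of 5, with 0 lower in each list. Of 9 resident macrophage markers 4 were lower in cluster 6, of 13 lipid-associated macrophage markers 5 were lower, and of 14 macrophage markers 4 were lower. MHC class II genes did not differ past 2-fold, with 0 of 7 called. T cell markers were higher for 6 of 7, with a median log2 ratio of 1.70, and NK cell markers for 2 of 2.

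Against cluster 3, 648 of 11521 genes (5.62%) were higher and 645 (5.6%) lower in cluster 6. Dendritic cell markers were higher for 8 of 10 and monocyte markers for 5 of 6, and lipid-associated macrophage markers were lower for 8 of 14. Against cluster 11, 672 of 9492 genes (7.08%) were higher and 413 (4.35%) lower. There dendritic cell markers were higher for 7 of 8, and resident macrophage markers were lower for 9 of 11. T cell markers were higher for 7 of 7 in that pair, with a median log2 ratio of 3.58 against 2.36 for dendritic cell markers. NK cell markers were higher for 2 of 2. In all 3 pairs 0 dendritic cell markers were lower in cluster 6.

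A weighted sum of the other 20 clusters, with no negative weight, was fitted to cluster 6 on the square root scale of CPM. Cluster 14 took 71.1% of the weight, cluster 15 10.5%, cluster 3 10.2%, cluster 10, which held the highest levels of dividing cell genes, 6.07%, and cluster 20 2.06%. A weight is no share of nuclei. The sum accounted for 93.9% of the variance, against 92.6% for cluster 14 alone. Of 10555 genes, 288 (2.73%) were past 2-fold above the fitted sum and 472 (4.47%) past 2-fold below it.

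Several dendritic cell genes stood above the sum. Of 9 dendritic cell markers with enough counts 5 lay above it and 0 below, while of 10 T cell markers 0 lay above and 8 below. Cluster 15 held 10.5% of the weight, and T cell genes in cluster 6 stood at a median of 4.37% of their level there. A place below the sum therefore does not show a lack of T cell RNA. Clec9a stood at 107 CPM in cluster 6, against 14.2 in the sum (7.53-fold above), Flt3 at 106 against 25.5 and Htr7 at 110 against 21.2. Zfp366, a zinc finger factor of dendritic cells known as DC-SCRIPT, had 53.1 CPM in cluster 6, against 8.17 in the sum. Klri1, Skint3 and Clec1a of the leading genes were 5.10-fold to 6.28-fold above. Thsd4 and Sntg1, which were highest in mesothelial-rich cluster 12, were also above the sum, with Thsd4 at 68.3 CPM against 10.9 and Sntg1 at 88.7 against 14.7.

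**Figure D4:**
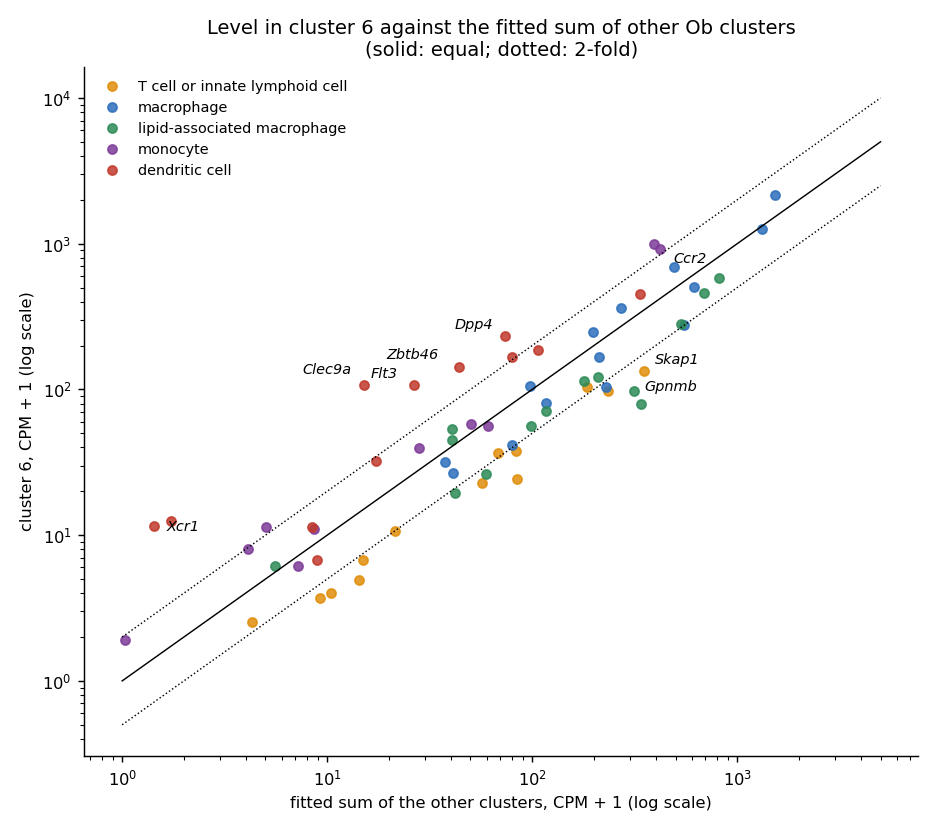
Level of marker genes in cluster 6 (vertical axis) against the fitted sum of the other Ob clusters (horizontal axis), both as CPM plus 1 on log scales, with 1 point per gene coloured by list. The solid line marks equal levels and the dotted lines 2-fold; Clec9a (107 against 14.2 CPM) and Flt3 (106 against 25.5 CPM) lie above, and most T cell genes lie below.

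Lymphocyte genes were found at low levels in cluster 6, and the lists stood in different proportions to cluster 15, which led the T cell and NK cell lists. T cell genes stood at 3.26% (Cd247) to 14.9% (Il7r) of their level in cluster 15, with a median of 4.37% over the 12 genes with enough counts. Themis, which guides T cell selection, had 97.2 CPM in cluster 6, against 2022 in cluster 15, and Skap1, an adaptor of the T cell receptor, had 132 against 3077. B cell genes stood at 11.3% (Cd79a) to 28.6% (Bank1), with a median of 13.7% over the 6 genes with enough counts. Pax5, the factor of B cell identity, had 52 counts, at 15.8 CPM, against 121 CPM in cluster 15. Klrd1, a receptor of NK cells, had 30.1 CPM in cluster 6, against 169 CPM in cluster 15, or 17.8%. Of 13 T cell markers 6 were higher in cluster 6 than in all other clusters summed, but 0 were without clusters 4, 5 and 7. Of 7 NK cell markers 6 were higher, and 3 without those clusters. Of 9 B cell markers 7 were higher and 1, Ebf1, was lower. Without those clusters 6 of 8 B cell markers were still higher and 1 was lower, with a median log2 ratio of 1.38. The part of lymphocyte RNA in the levels of cluster 6 was not tested.

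**Figure D5:**
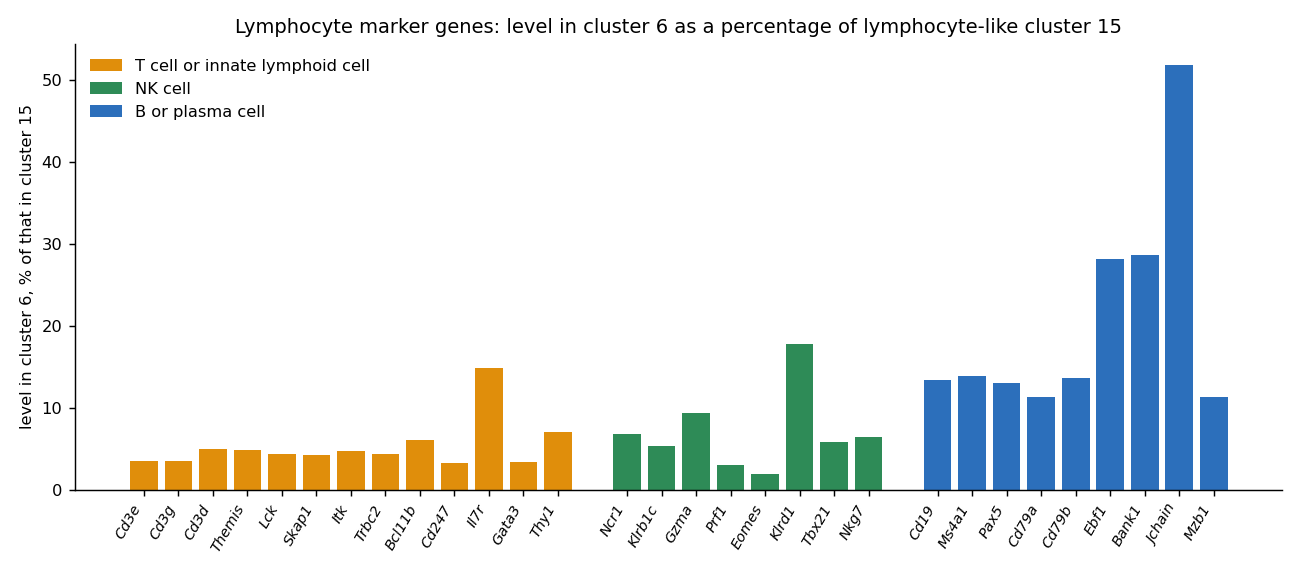
Level of T cell, NK cell and B cell marker genes in cluster 6 as a percentage of their level in lymphocyte-rich cluster 15 of Ob, with 1 bar per gene. T cell genes other than Il7r (14.9%) lie at 7.04% (Thy1) or below, and B cell genes lie at 11.3% or above; Jchain (16 counts), Prf1 (2) and Mzb1 (3) are imprecise.

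Genes of the other tissues of fat were at low or moderate levels. All 15 adipocyte markers with enough counts were lower in cluster 6, at 3.24% (Tshr) to 35.0% (Cd36) of their level in adipocyte-like cluster 4. Without clusters 4, 5 and 7 in the comparison 1 of the 15 was lower. Ghr, the growth hormone receptor, had 762 CPM in cluster 6, against 9490.2 in the other clusters, and Pparg, a factor that macrophages share with adipocytes, had 360 against 999. Of 15 fibroblast markers 10 were lower and 1, Dpp4, was higher, a call lost without clusters 4, 5 and 7 (log2 ratio 0.81). Of 12 mesothelial markers 7 were lower and 0 higher, and 11 were lower without those clusters. Endothelial genes stood at a median of 1.59% of their level in endothelial-rich cluster 21. The neutrophil genes Retnlg, Mmp8, Mpo and Elane and the mast cell genes Tpsb2, Fcer1a, Ms4a2 and Gata2 had 0 counts, but other members of both lists were present. Kit, the stem cell factor receptor, had 31.9 CPM in cluster 6, against 4.05 in the other clusters, and Cma1, a mast cell protease, had 7 counts, at 2.13 CPM, against 0.803 (ratio 2.65, 1.03 to 5.69). Csf3r, the G-CSF receptor of neutrophils and monocytes, had 36.1 CPM, 2.01 times its level in the other clusters (1.66 to 2.42). The summed level of the neutrophil list was 1.59 times, and that of the mast cell list 2.60 times, that of the other clusters, ranking 9 and 6 of 21. Without clusters 4, 5 and 7 neither Csf3r nor Cma1 was past 2-fold higher, while of 5 mast cell markers with enough counts 1 was still higher and 1 was lower. The part of free RNA in these levels was not tested.

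The genes lowest in cluster 6 had 0 counts there and were highest in clusters of other kinds. With 3 counts in place of 0, Shisa6 was at least 18.4-fold lower in cluster 6 than in the other clusters summed, and Lncbate1, a noncoding RNA of brown fat, at least 8.43-fold lower. Ranbp3l, Dync1i1, Ankfn1, Fyb2 and Cnr1, the cannabinoid receptor of the brain, lay between them. The highest level of Shisa6, Ranbp3l, Cnr1 and Lncbate1 was in adipocyte-like cluster 4, that of Dync1i1 in cluster 12, and that of Ankfn1 and Fyb2 in cluster 17, which held the highest levels of epididymal and epithelial genes.

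Immune signalling genes were mixed. Of 12 interferon response genes 7 were higher in cluster 6 and 0 lower, with a median log2 ratio of 1.10, and 4 were higher without clusters 4, 5 and 7. Rsad2, an antiviral enzyme, had 39.5 CPM in cluster 6, against 12.2 in the other clusters, and Stat2, the transcription factor of the pathway, had 121 against 68.2, below 2-fold though the highest of the 21. Of 20 cytokine and chemokine genes 6 were higher and 4 lower, and without those clusters 2 were higher and 6 lower. Il1b, the inflammatory cytokine, had 44 counts, at 13.4 CPM, against 1.01 CPM in the other clusters (ratio 13.3), but was within counting error of cluster 14 (ratio 1.38, 0.550 to 4.47). Tgfb1 had 129 CPM in cluster 6, against 124 in cluster 3, also within counting error. Cxcl1 had 3 counts, at 0.911 CPM, against 11.6 CPM in the other clusters. Pmaip1, a cell death gene induced by p53 and by interferon, had 31.6 CPM in cluster 6, against 3.04 (ratio 10.4), while 2 of the other 11 genes of its list were lower.

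Metabolic genes of fat storage were mostly lower in cluster 6, with 13 of 17 fatty acid and triglyceride synthesis genes lower and 1 higher, and 10 of 11 lipolysis genes lower. Without clusters 4, 5 and 7 in the comparison these lower counts were 2 and 1. Of 21 lysosomal genes 0 were higher and 3 lower, and of 24 ribosomal protein genes 0 were called. Without clusters 4, 5 and 7, 7 lysosomal and 3 ribosomal protein genes were lower. Of 12 dividing cell genes 0 were higher and 0 lower, but 6 were lower without those clusters, with a median log2 ratio of -0.98. That comparison kept cluster 10, where their sum was 3127 CPM, against 308 CPM in cluster 6, which ranked 6 of 21. Against the most alike clusters, dividing cell genes were higher for 3 of 8 (cluster 14), 4 of 9 (cluster 3) and 7 of 8 (cluster 11), with 0 lower. Top2a had 41.9 CPM in cluster 6, against 491 in cluster 10. Mitochondrial genes took 0.329% of the UMIs of cluster 6, against a median of 0.429% in the others, and Malat1 took 3.32%, against a median of 4.61%. Thinned to the 334383 UMIs of the smallest cluster, 13821 genes would have a count in cluster 6, against 13230 to 15500 in the others.

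The members of this profile were also read in the 3 whole libraries, 1 per stage. In the order Ctrl, Mid_Ob and Ob, Clec9a had 3.56, 5.32 and 7.04 CPM, and Flt3 had 7.65, 5.53 and 7.55 CPM. Cd209a had 1.11, 2.71 and 3.97 CPM, and Ccr2 had 21.4, 29.5 and 114 CPM. In such sums the number of cells of a kind, their RNA per cell and the mix of other cells in the library cannot be told apart. Clec9a had 107 CPM in cluster 6 of Ob, against 43.7 in the most alike cluster of Mid_Ob and 11.9 in that of Ctrl. Flt3 had 106 CPM, against 43.7 and 5.28, and Ccr2 had 924, against 216 and 163. Batf3 had 166 CPM, against 88.5 and 79.6. These clusters were matched over the whole profile and not by dendritic cell genes. Flt3 in that of Ctrl (5.28 CPM) was below its level in the whole Ctrl library (7.65 CPM). Whether they hold the same kind of cell as cluster 6 was not tested.

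By its markers, cluster 6 was dendritic cell-like in its leading genes, with MHC class II, Ccr2 and general myeloid genes beside them. The lipid-associated macrophage program was low. The sum of resident macrophage genes lay above the other clusters summed but below clusters 20, 11 and 14. Without clusters 4, 5 and 7 the median log2 ratio of the resident genes was -0.23. Most T cell markers were higher than in clusters 14, 3 and 11, but stood at a median of 4.37% of their level in cluster 15. Type 1 genes (Xcr1, Clec9a), type 2 genes (Cd209a, Irf4) and Ccr2 of the monocyte list were each highest in cluster 6. Cd209a was within counting error of cluster 14, and the summed type 2 list was higher in clusters 20 and 11. A mean count per cluster cannot tell several kinds of nuclei from nuclei that carry several programs, and the number of nuclei cannot be derived from the table. The part of doublets in the profile was not tested.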

How the data were processed

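Nuclei of mouse epididymal fat were sequenced on the 10x Genomics platform and processed by the authors with Cell Ranger, and of that run neither the version nor the genome build is given in the sources used here. The signal column used here is the deposited mean count of a gene in a cluster, its UMIs divided by the summed size factor of the nuclei, as the authors' Cell Ranger run wrote it. The authors' log2 fold change and adjusted p-value columns were not used. The step of 1 UMI was found in the lowest values of each cluster and turned them into counts, of which 100% were whole within 0.01 counts. They were scaled to CPM. The study used DoubletFinder against doublets, but the sources used here do not place the deposited cluster means before or after that step. No doublet caller can be run on means. The clusters of Ob held between 334383 and 36391957 UMIs.

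Ratios carry 95% conditional binomial intervals, and a gene at 0 was set to 3 counts. Genes were called past 2-fold with at least 50 counts in the pair. The members and lists were chosen with earlier results of these data known, and 6 subtype lists after the values had been seen. Named genes are the 12 highest and 8 lowest against the other clusters, the 8 highest over the fitted sum (at least 200 counts in the pair and, for the highest, 50 CPM in cluster 6) and, of each list, the 3 members with most counts. Genes without a proper symbol, 4 of the top 20 and 10 of the lowest 20, were left out. Other list members in the text were chosen after their values had been seen. List genes that the Ob table does not list were not analysed here. Results of some genes that the rule names are not reported here. Of the gene identifiers, 26323 of 26350 matched GENCODE M21. Intervals and floors cover counting error only, and the spread between mice is unknown. The recovery, intervals and weights were tested on simulated data. Alternatives changed the scaling, the clusters in the comparison, the count minimum, the fold, the pseudocount and the scale of the fit. Software was pandas 2.3.3, scipy 1.17.1 and numpy 2.4.6 under Python 3.11.15, with matplotlib 3.10.9 for the figures.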

Additional observations from a re-analysis of the deposited data

How the results depend on the processing

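No paired analysis was possible because each stage is 1 library and the comparisons lie between clusters of the same library. Counts of genes higher in cluster 6 were 857 without clusters 4, 5 and 7, 967 at a minimum of 500 counts, 2618 with 1 count in each group and 3046 at 1.5-fold, beside 1608. Counts of genes lower were 1938 against the median of the other clusters and 2576 at a minimum of 500 counts, beside 4157. Dendritic cell and MHC class II counts stayed within 1.5 times of those reported under every alternative run. Without clusters 4, 5 and 7, higher members numbered 4 for monocyte, 4 for macrophage, 0 for T cell, 3 for NK cell, 1 for endothelial, 4 for interferon and 2 for cytokine lists, and lower members 10 for lipid-associated macrophage, 1 for adipocyte, 7 for lysosome and 2 for fatty acid synthesis lists. Lower members then also numbered 11 for mesothelial, 6 for dividing cell and 3 for ribosomal protein lists, and 0 fibroblast members were higher. Against the median of the other clusters, lower members numbered 2 for lipid-associated macrophage, 1 for adipocyte, 1 for lysosome, 5 for fibroblast and 0 for fatty acid synthesis lists, and 11 T cell members were higher. With a pseudocount of 1 CPM the most alike cluster was 3 (Pearson r 0.943), just ahead of 14. The weight of cluster 14 was 73.6% on linear CPM, 84.97% weighted by 1 over the mean and 71.1% without clusters 9, 10, 13, 17 and 18. The smaller weights were less stable. Cluster 3 took no weight on linear CPM or weighted by 1 over the mean, and 16.6% without clusters 9, 10, 13, 17 and 18. Cluster 10 took 12.4% on linear CPM and 5.81% weighted by 1 over the mean, and cluster 20 took 7.71% on linear CPM. Without cluster 14 the largest weight was 36.7%, of cluster 11. At minimums of 10 and 500 counts, 1053 and 35 genes were higher and 1012 and 25 lower than in cluster 14, 1305 and 139 higher and 1328 and 232 lower than in cluster 3, and 1503 and 101 higher and 887 and 106 lower than in cluster 11. Without clusters 4, 5 and 7 the log2 ratios of Pfkfb3 and Hk2, called lower, turned positive, at 0.21 and 0.070, and that of Cadm1, not called, turned negative, at -0.35. The cause of these shifts was not tested. Leaving out cluster 14 or 15, chosen after the data were seen, moved no count by over 1.5 times. Clusters with few UMIs, such as cluster 14, limit how many genes can be called in a pair.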
